A study of Mus musculus with 12 samples.

Results

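The genes described here are 34 genes of glycolysis and of the response to low oxygen, taken as a list of gene symbols and matched by symbol to the 45706 Ensembl genes of the deposited count table. All 34 were found. A filter on low counts left 17003 genes for testing, of which 33 were members of the list, and *Car9* was left out. RNA was sequenced from 12 libraries of mouse cells in 4 groups of 3 replicates. All cells came from embryonic stem cells of strain C57BL/6 that carried GFP in 1 copy of *Sox1*, the gene of an early neural transcription factor. The group labelled Baseline holds *Sox1*-negative glial progenitors, the neural progenitor cells (NPCs) of the study, not sorted according to the labels. Sox1posGP are sorted *Sox1*-positive glial progenitors, which the study's methods describe as NPCs whose *Sox1* promoter was targeted by the transcriptional activator dCas9-VP64. NSC are unsorted neuroepithelial cells and NR are neural rosettes sorted for GFP, both made by neural differentiation of the stem cells. The lines with dCas9-VP64 were clonal. The study states of its replicates in general, without naming these libraries, that they came from separate days and clonal lines.

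Glycolysis splits glucose into pyruvate and yields ATP without oxygen. Several of its steps can be run by alternative enzymes (isoenzymes) encoded by separate genes, which differ in tissue distribution and regulation. Hypoxia-inducible factors (HIFs) are transcription factors whose alpha subunit is marked for degradation by oxygen-dependent prolyl hydroxylases. When oxygen is low they bind short DNA motifs with the core CGTG. They then raise transcription of glucose transporters, glycolytic enzymes, kinases that switch off pyruvate dehydrogenase, and factors of vessel growth. Stem cells of the early embryo and neural stem cells are known for high glycolytic flux, which declines as neurons form. Messenger RNA levels, as measured here, are not flux, oxygen or HIF protein.

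Library totals were 4939268 to 18351483 counts in Baseline, 3407066 to 6315574 in Sox1posGP, 29046205 to 43095688 in NSC and 16707006 to 34594885 in NR, so low members were measured least precisely in the NPC groups. *Sox1* itself was at 4.83 to 6.00 CPM (read counts scaled to library size, with TMM factors throughout) in Baseline, 20.3 to 21.7 in Sox1posGP and 48.6 to 64.9 in NSC. Replicate 1 of NR, at 4.62 CPM, lay at the level of Baseline and the remaining NR libraries at 20.0 and 19.2. The NR libraries also carried 1408 to 2694 CPM of 6 pluripotent cell markers summed (6.47 to 7.39 in Baseline, 7.69 to 9.34 in Sox1posGP, 46.5 to 144 in NSC). Their summed level of 9 neural progenitor markers was 812 to 1376 CPM, the lowest of the 4 groups (2294 to 2528 in NSC, 3041 to 3163 in Sox1posGP, 5058 to 5420 in Baseline). Single markers did not all follow the sums. Against Baseline, 5 rose and 4 fell in NSC, 1 rose and 5 fell in Sox1posGP, and 2 rose and 7 fell in NR. All 9 were lower in NR than in NSC. The shares of all genes are given with the members' counts below. All 6 pluripotent markers were higher in NR than in NSC. They are therefore called the libraries labelled NR, or NR for short, and the part of pluripotent cells in any result on them was not tested. Sums of 7 neuron markers were 554 to 654 CPM in NSC and 314 to 460 in the libraries labelled NR, against 33.9 to 44.1 in both NPC groups. The 8 glial markers had low sums everywhere, at 28.6 to 60.6 CPM. Single glial markers moved apart, however: against Baseline and past 4-fold, 3 rose and 2 fell in NSC, and 4 rose and 2 fell in NR. Sums of 9 mesoderm, endoderm and blood vessel markers were 186 to 236 CPM in NR, against 61.5 to 87.9 in NSC, 48.1 to 55.7 in Sox1posGP and 38.6 to 46.9 in Baseline. Of the 7 tested, 5 were higher and 1 lower in NR than in NSC, and their part in the results was not tested either. By the labels, NR was sorted and NSC was not, so sorting and group cannot be told apart there. The labels give only Sox1posGP of the NPC groups as sorted, whereas the study's text speaks of sorting for both, so whether sorting also separates Sox1posGP from Baseline is not settled by the sources. In bulk RNA, fewer cells of a type and less RNA per cell cannot be told apart either.

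The sequences upstream of 6 members are shown because these members, picked after their values were seen, were among those that moved most: *Slc2a1*, *Slc16a3* and *P4ha2*, which rose over 9-fold in both NSC and the libraries labelled NR, and *Vegfa*, *Egln3* and *Pfkfb4*, which were called as falls with a fitted fold over 4 in Sox1posGP, that of *Pfkfb4* on few counts. Each run is the 250 bases before a RefSeq transcription start on build GRCm38.p6, read 5′ to 3′ on the strand of the gene, with the letters ACGTG or GCGTG, or their complements CACGT and CACGC, in capitals.
Slc2a1: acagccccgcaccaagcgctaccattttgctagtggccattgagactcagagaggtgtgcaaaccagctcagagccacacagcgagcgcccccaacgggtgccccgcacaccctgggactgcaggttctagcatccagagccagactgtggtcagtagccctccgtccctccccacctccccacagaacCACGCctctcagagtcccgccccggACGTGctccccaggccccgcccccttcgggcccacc
Slc16a3: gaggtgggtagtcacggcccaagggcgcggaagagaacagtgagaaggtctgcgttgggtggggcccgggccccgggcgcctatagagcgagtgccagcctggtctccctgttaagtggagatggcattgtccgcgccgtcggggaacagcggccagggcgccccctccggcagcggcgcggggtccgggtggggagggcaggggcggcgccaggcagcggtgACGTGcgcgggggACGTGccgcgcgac
P4ha2: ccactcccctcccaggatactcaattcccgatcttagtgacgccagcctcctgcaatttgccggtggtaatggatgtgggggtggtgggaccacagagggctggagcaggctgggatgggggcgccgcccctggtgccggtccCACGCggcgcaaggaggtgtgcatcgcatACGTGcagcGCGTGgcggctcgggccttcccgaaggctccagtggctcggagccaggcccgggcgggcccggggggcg
Vegfa: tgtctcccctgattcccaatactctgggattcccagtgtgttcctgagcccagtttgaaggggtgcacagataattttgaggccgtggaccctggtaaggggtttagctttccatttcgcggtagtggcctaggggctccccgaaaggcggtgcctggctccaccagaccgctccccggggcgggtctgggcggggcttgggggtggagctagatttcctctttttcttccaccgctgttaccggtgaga
Egln3: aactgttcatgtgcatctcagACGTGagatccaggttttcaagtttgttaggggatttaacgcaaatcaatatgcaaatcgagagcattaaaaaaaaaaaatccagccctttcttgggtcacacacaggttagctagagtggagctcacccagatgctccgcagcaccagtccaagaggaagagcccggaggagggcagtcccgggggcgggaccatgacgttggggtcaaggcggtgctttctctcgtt
Pfkfb4: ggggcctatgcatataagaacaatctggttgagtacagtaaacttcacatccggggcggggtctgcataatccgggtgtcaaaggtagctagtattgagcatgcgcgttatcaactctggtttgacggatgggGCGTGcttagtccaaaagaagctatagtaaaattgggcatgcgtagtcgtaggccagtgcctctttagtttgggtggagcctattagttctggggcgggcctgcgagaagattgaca
They lie at chr4:119108495-119108744 (plus strand), chr11:120948817-120949066 (plus), chr11:54100674-54100923 (plus), chr17:46032378-46032627 (minus), chr12:54203875-54204124 (minus) and chr9:108991652-108991901 (plus). *Slc2a1* and *Slc16a3* hold 2 matches each, *P4ha2* 3, and *Egln3* and *Pfkfb4* 1 each. These letters are not in the window shown for *Vegfa*, the outermost of its 2 annotated starts, while the entry for the inner start, at chr17:46025164-46025413, holds 2 matches. The promoter table, which covers 250 bases before to 50 after a start, had entries for 32 members (*Slc2a3* and *Ndrg1* had none). Of their 45 entries, 36 (80.0%) held ACGTG or GCGTG on either strand, as did at least 1 entry of 29 members. Among all 32851 promoters of the table the share was 43.8% (19.6% for ACGTG, 32.4% for GCGTG, and 7.15% for CACGTG, which contains ACGTG on both strands). Member entries were also richer in G and C, with a median of 62.3% against 52.7% for all entries, and the part of base composition in the share was not tested. Members with a match moved in either direction, and a match of these letters is not evidence of binding.

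In Sox1posGP, the members moved in both directions, while in NSC and in the libraries labelled NR most of them rose. A gene was called at an adjusted p under 0.1 (Benjamini-Hochberg, over all genes tested) and an unadjusted p under 0.05 in the quasi-likelihood test of edgeR. These are the thresholds of the study. Against Baseline, 9 of the 33 members rose in Sox1posGP, where 21.6% of all genes did, and 12 fell (22.7% of all genes), with a median log2 fold change of -0.07 (0.00 over all genes). In NSC 20 rose (42.7% of all genes) and 6 fell (32.5%), with a median of 0.52 against 0.20 over all genes. In the libraries labelled NR 22 rose (44.2%) and 6 fell (32.8%), with a median of 1.22 against 0.19. Between the libraries labelled NR and NSC, 23 were higher in NR (29.5% of all genes) and 3 lower (25.8%), with a median of 0.49 against 0.01. These comparisons share libraries, so each stands by its own values.

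**Figure D1:**
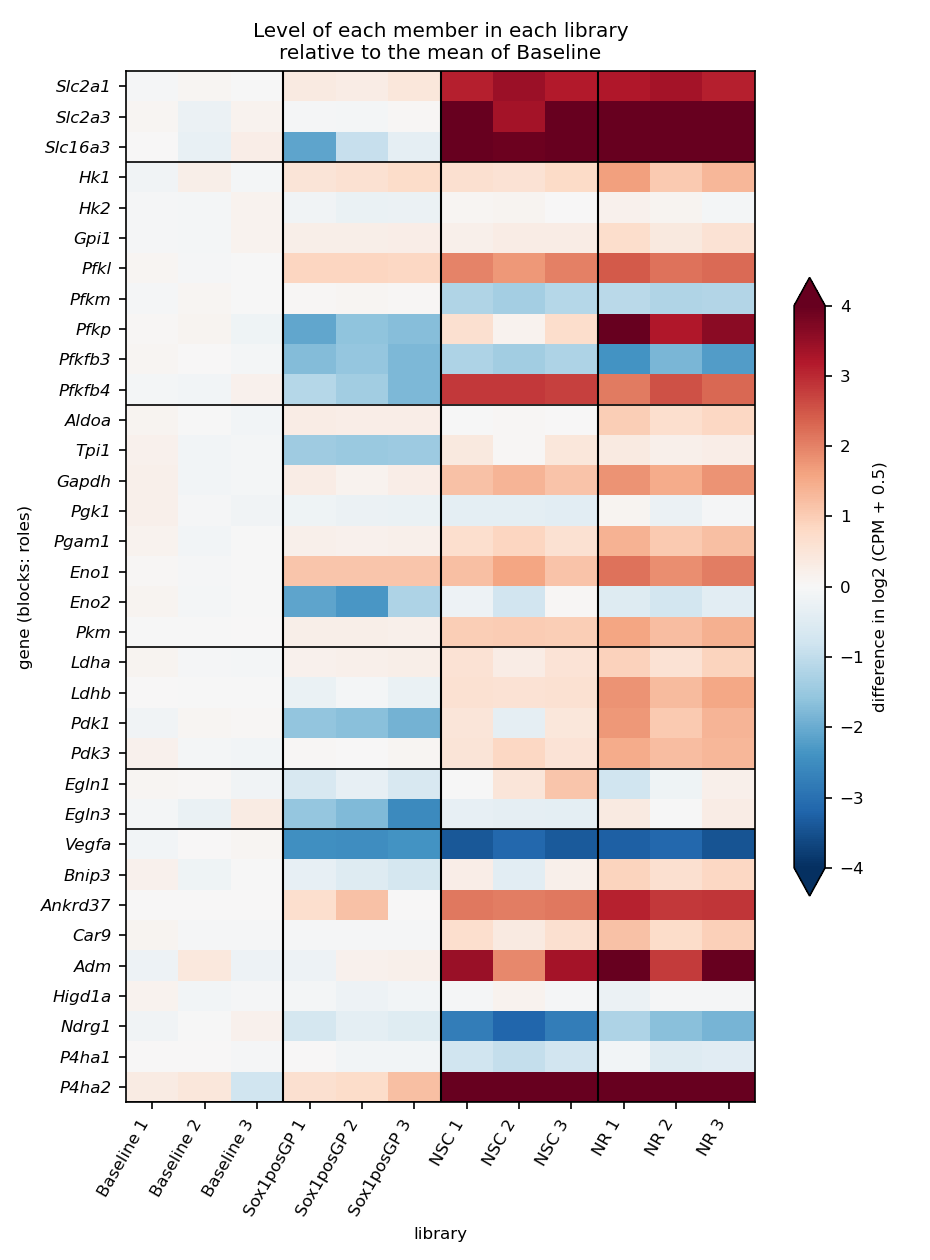
Level of each of the 34 members in each of the 12 libraries, as log2 of CPM plus 0.5 minus the mean of the 3 Baseline libraries. Rows are genes in blocks by role from transporters at the top to HIF targets at the bottom, columns are libraries, red is higher and blue lower, and colours stop at 4 and -4; the transporters are deep red in NSC and NR, and *Vegfa* is blue in every library outside Baseline.

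With a fold over 4 in addition, which is the full rule of the study, 1 member rose in Sox1posGP (3.87% of all genes) and 3 fell (1.92%). In NSC 7 rose (19.1%) and 2 fell (5.89%), and in the libraries labelled NR 10 rose (22.0%) and 2 fell (6.02%). With only genes of at least 10 counts in every library, 3 rose in NSC and 5 in NR, and in Sox1posGP 0 rose and 1 fell. Between NR and NSC, 2 were more than 4-fold higher in NR (7.34%), and 0 were more than 4-fold lower (0.118%), both in edgeR's test and in DESeq2's Wald test and also at an unadjusted p under 0.05. The 2 became 1 without NR replicate 1, NR replicate 3 or NSC replicate 2, and also with no filter, only these groups or thinned counts. Among the 23 glycolytic members, 7 rose and 8 fell in Sox1posGP, 16 rose and 3 fell in NSC, 18 rose and 3 fell in the libraries labelled NR, and 16 were higher and 2 lower in NR than in NSC. Among the 10 tested hypoxia members, 2 rose and 4 fell in Sox1posGP, 4 rose and 3 fell in both NSC and the libraries labelled NR, and 7 were higher and 1 lower in NR than in NSC. Against the shares of all genes given above, 4 rises and 3 falls of 10 in NSC and NR were close to the background. Without replicate 1 of NR, the counts of members were 21 higher and 6 lower against Baseline and 22 higher and 2 lower against NSC, and without replicate 2 of Sox1posGP, 5 members rose in Sox1posGP in place of 9.

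**Figure D2:**
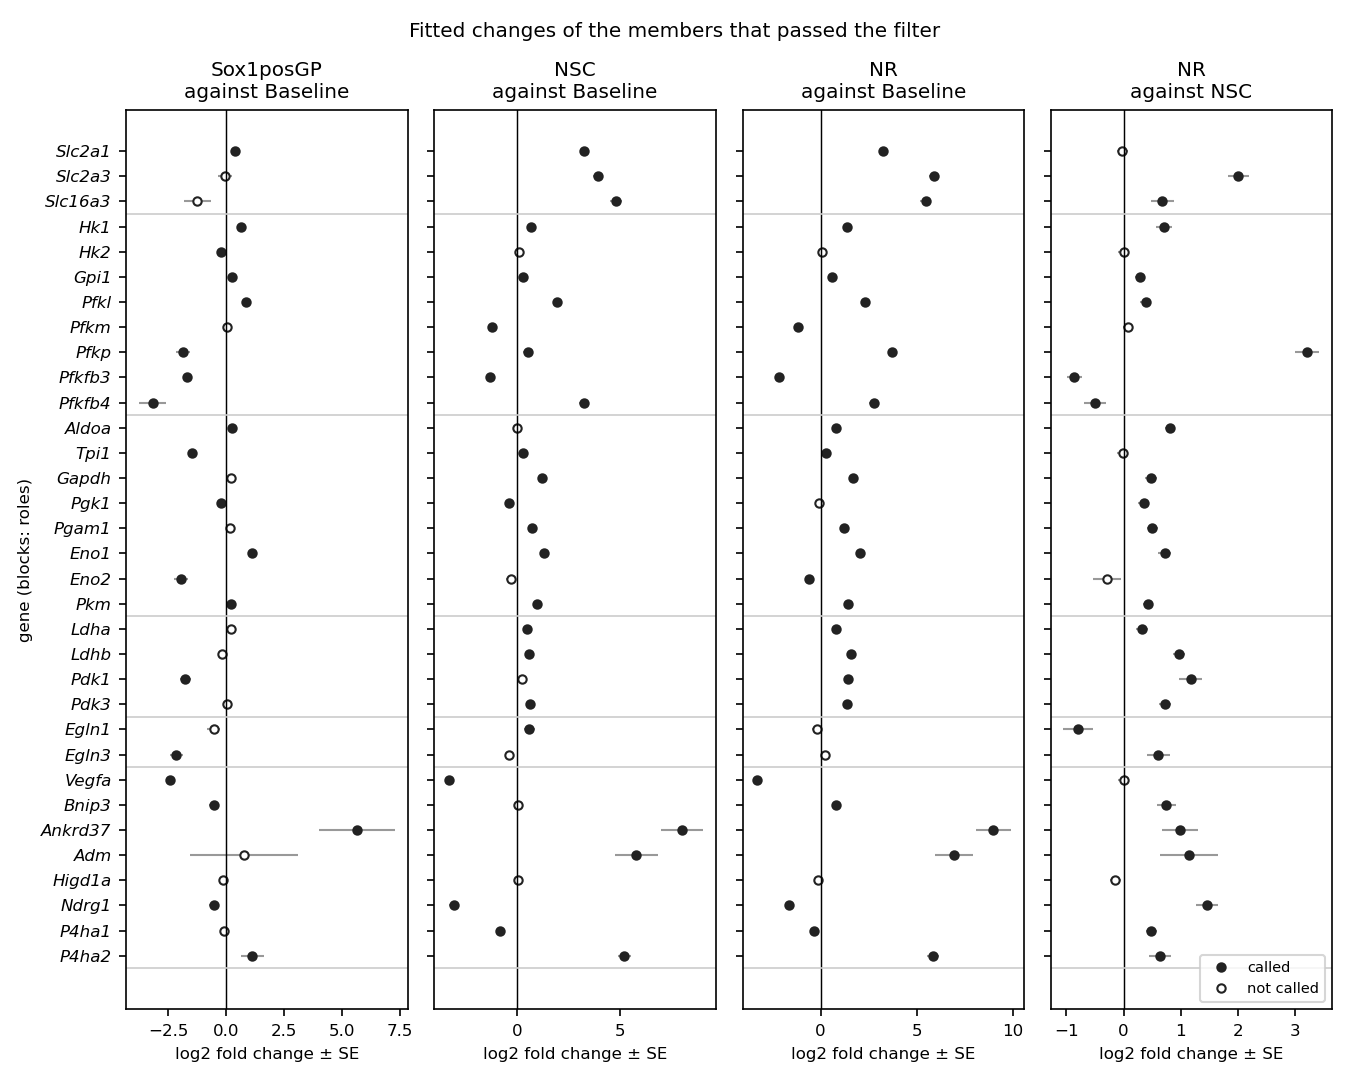
Fitted log2 fold changes of the 33 tested members in the 4 comparisons, with genes on the vertical axis in the same order and the log2 fold change on the horizontal axis, whose scale differs between panels. Points are estimates, bars 1 standard error, and filled points passed the call; the widest bars belong to *Ankrd37* and *Adm*, which had few counts in the NPC groups.

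The carriers that bring glucose in and take lactate out all rose in NSC and in the libraries labelled NR, by 9.44-fold to 60.01-fold, where 42.7% and 44.2% of all genes rose. In Sox1posGP 1 of the 3 rose, which is near the 21.6% of all genes. *Slc2a1*, the glucose transporter GLUT1 found in most cells, was at 34.2, 37.0 and 34.6 CPM in Baseline, 45.5, 43.3 and 48.5 in Sox1posGP, 305, 385 and 323 in NSC and 331, 356 and 311 in the libraries labelled NR. All 3 Sox1posGP libraries were above all 3 of Baseline, and NSC and NR overlapped. The log2 fold change against Baseline was 0.38 in Sox1posGP (SE 0.11, adjusted p = 0.0116), 3.26 in NSC (SE 0.10, adjusted p = 1.32e-11) and 3.24 in NR (SE 0.10, adjusted p = 1.29e-11), and NR and NSC differed by -0.02 (SE 0.09, adjusted p = 0.869).

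*Slc2a3*, the high-affinity transporter GLUT3 of neurons and early embryos, separated NSC from the libraries labelled NR. Its levels were 8.35, 6.56 and 8.77 CPM in Baseline, 7.53, 7.38 and 8.17 in Sox1posGP, 136, 83.5 and 136 in NSC and 580, 362 and 483 in NR. Only the NPC groups overlapped. The change was 3.91 in NSC (SE 0.23, 15.0-fold, adjusted p = 3.72e-09), 5.91 in NR (SE 0.24, 60.01-fold, adjusted p = 1.06e-10) and 2.00 between NR and NSC (SE 0.19, 4.001-fold and so at the fold threshold, adjusted p = 3.63e-06), or 1.83 without replicate 1 of NR. In Sox1posGP it was -0.04 (SE 0.30, adjusted p = 0.962). *Slc16a3*, the lactate exporter MCT4, was at 1.67, 1.26 and 2.09 CPM in Baseline and 0, 0.628 and 1.17 in Sox1posGP, that is 0, 4 and 7 counts, against 51.0, 32.4 and 53.2 in NSC and 81.5, 61.5 and 75.2 in NR. It rose 27.7-fold in NSC and 44.2-fold in NR (log2 4.79 ± 0.30 and 5.47 ± 0.30 SE), and the fall of 1.24 on the log2 scale in Sox1posGP did not pass (SE 0.57, adjusted p = 0.109).

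**Figure D3:**
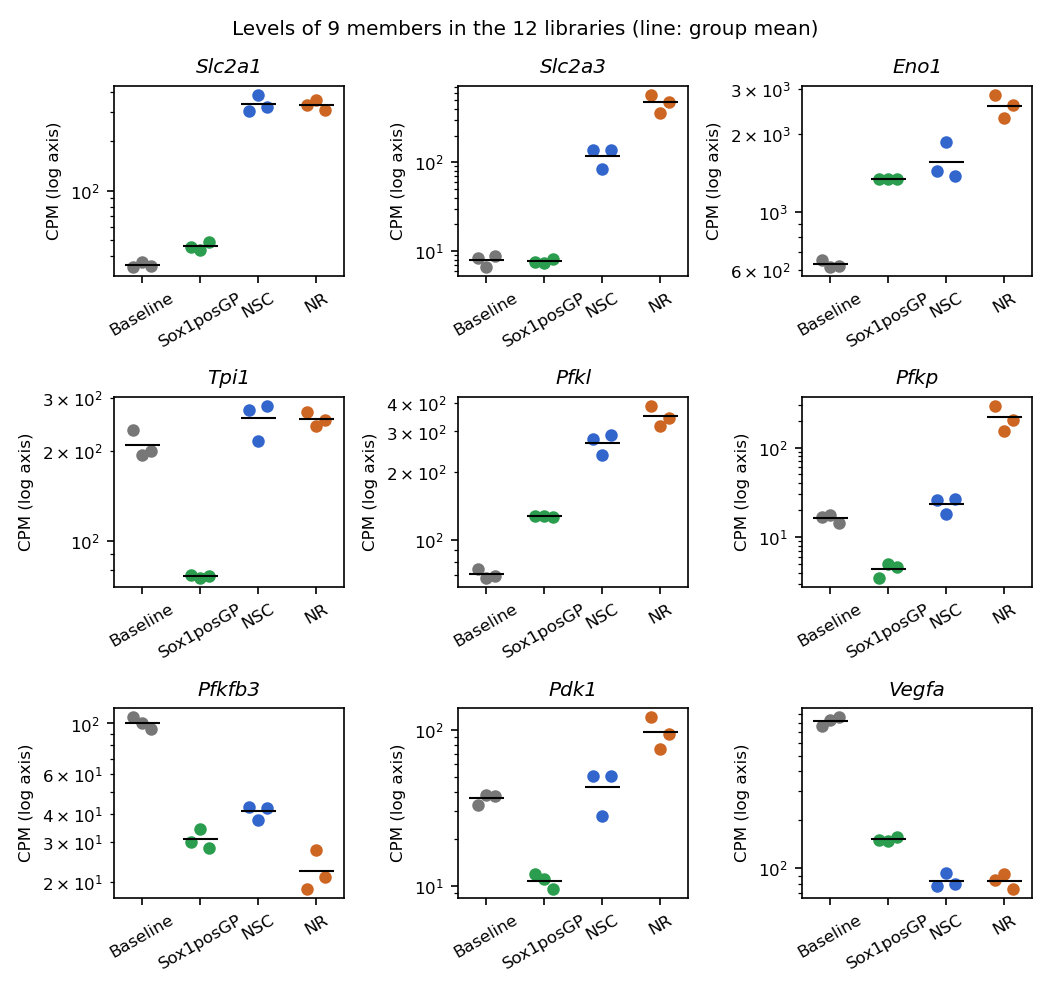
CPM of 9 members in the 12 libraries on a log axis, with groups on the horizontal axis, 1 point per library and a line at the group mean. *Slc2a1* is alike in NSC and NR whereas *Slc2a3* and *Pfkp* stand higher in NR, and *Tpi1*, *Pdk1*, *Pfkfb3* and *Vegfa* are lower in all 3 Sox1posGP libraries than in any of Baseline.

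At the first, trapping step of glycolysis the 2 hexokinases behaved differently. *Hk1*, the enzyme of brain and most other tissues, was at 42.4, 55.0 and 44.9 CPM in Baseline, 67.5, 72.5 and 78.9 in Sox1posGP, 74.1, 70.0 and 79.9 in NSC and 148, 97.9 and 120 in NR. It rose in each (log2 0.63, 0.66 and 1.37, SE 0.15, 0.14 and 0.14). *Hk2*, the insulin- and HIF-responsive enzyme, kept to 42.1 to 58.0 CPM in all 12 libraries and did not pass in NSC or NR. Its fall of 0.22 on the log2 scale in Sox1posGP was at the edge of the threshold (SE 0.10, adjusted p = 0.0999) and was lost in 13 of 15 alternative settings. *Gpi1*, the isomerase of the next step, stood at 162 to 187 CPM in Baseline, 201 to 203 in Sox1posGP, 198 to 211 in NSC and 225 to 280 in NR. It rose by 0.24, 0.27 and 0.57 on the log2 scale, and the call in Sox1posGP was lost in 4 of 15 settings. The rise in NSC was near the median of all genes there, 0.20.

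Phosphofructokinase, the committed step, differed between groups in which isoenzyme was most abundant. *Pfkl*, the liver type, was at 74.6, 67.9 and 69.3 CPM in Baseline, 127 in each Sox1posGP library, 278, 237 and 289 in NSC and 390, 317 and 344 in NR. Every group was separate from the others, with log2 fold changes against Baseline of 0.84 (SE 0.10, adjusted p = 1.63e-05), 1.92 (SE 0.10, adjusted p = 9.02e-10) and 2.31 (SE 0.10, adjusted p = 1.74e-10). *Pfkm*, the muscle type, took the opposite course in NSC and NR. It was at 109, 118 and 110 CPM in Baseline and 117, 118 and 115 in Sox1posGP, but 48.5, 43.7 and 51.2 in NSC and 52.6, 48.3 and 49.8 in NR. Only NSC and NR were below Baseline (log2 -1.23 and -1.16, SE 0.08 each). *Pfkp*, the platelet type, was at 16.8, 17.6 and 14.4 CPM in Baseline, 3.47, 5.02 and 4.67 in Sox1posGP, 25.7, 18.1 and 26.7 in NSC and 294, 152 and 204 in NR. It fell 3.63-fold in Sox1posGP (log2 -1.86, SE 0.31, adjusted p = 0.000288) and stood 9.21-fold higher in NR than in NSC (log2 3.20, SE 0.21, adjusted p = 3.06e-07). Replicate 1 of NR was the highest library and the change without it was 2.92. The rise of 0.52 in NSC (SE 0.22, adjusted p = 0.0472) was lost in 5 of 15 settings.

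*Pfkfb3* and *Pfkfb4* encode the enzymes that make and remove fructose 2,6-bisphosphate, the strongest activator of phosphofructokinase. *Pfkfb3* was highest in Baseline, with 107, 101 and 94.3 CPM against 30.1, 34.4 and 28.4 in Sox1posGP, 42.7, 37.8 and 42.7 in NSC and 18.7, 27.8 and 21.0 in NR. It fell in all 3 (log2 -1.70, SE 0.14, adjusted p = 8.2e-07 in Sox1posGP, -1.30, SE 0.13, in NSC and -2.16, SE 0.14, in NR). *Pfkfb4* had 19, 8 and 7 counts in Baseline (1.13, 1.12 and 1.46 CPM) and 1, 1 and 0 in Sox1posGP, against 11.9, 11.7 and 11.03 CPM in NSC and 6.77, 9.58 and 8.01 in NR. With 34 counts against 2, the ratio of Baseline to Sox1posGP was 9.36, with an exact interval of 2.40 to 80.5 at 95% that covers counting error only. The rises of 3.26 in NSC and 2.76 in NR (SE 0.26 each) brought it to a few times less than *Pfkfb3* per kilobase of mRNA, at 3.30 against 8.86 CPM per kb in NSC, where Baseline had 0.355 against 21.7.

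From aldolase to pyruvate kinase, 5 of the 8 members rose and 1 fell in NSC (42.7% and 32.5% of all genes), 6 rose and 1 fell in the libraries labelled NR (44.2% and 32.8%), and 3 rose and 3 fell in Sox1posGP (21.6% and 22.7%). *Eno1*, the enolase of most tissues, was at 656, 613 and 618 CPM in Baseline, 1348, 1348 and 1347 in Sox1posGP, 1437, 1867 and 1381 in NSC and 2842, 2302 and 2582 in NR. All 9 libraries of the other groups were above Baseline, with log2 fold changes of 1.10 (SE 0.11, adjusted p = 5.66e-06), 1.31 (SE 0.11, adjusted p = 1.78e-07) and 2.03 (SE 0.12, adjusted p = 2.65e-09). *Tpi1*, the isomerase that keeps both products of the split sugar in the pathway and has no second gene for its step among the members, went the other way in Sox1posGP. It was at 234, 194 and 199 CPM in Baseline, 77.0, 74.9 and 75.9 in Sox1posGP, 273, 215 and 283 in NSC and 268, 242 and 253 in NR. The fall of 1.46 on the log2 scale in Sox1posGP (SE 0.11, adjusted p = 3.41e-07) held in all 15 alternative settings. The rises of 0.30 in NSC, where the ranges overlapped, and 0.28 in NR (SE 0.10 each, adjusted p = 0.02 and 0.0257) were lost in 2 and 6 of 15 settings, that in NR also without its replicate 1 (log2 0.20, adjusted p = 0.125). Both were near the medians of all genes, 0.20 in NSC and 0.19 in NR.

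*Eno2*, the neuronal enolase, was at 14.1, 12.1 and 12.7 CPM in Baseline, 2.61, 2.20 and 5.17 in Sox1posGP, 11.1, 7.39 and 13.3 in NSC and 8.99, 7.61 and 9.47 in NR. It fell in Sox1posGP (log2 -1.94, SE 0.31, adjusted p = 0.000205). The neuron markers stood highest in NSC, where its change was -0.30 (SE 0.25, adjusted p = 0.291). The fall of 0.59 in NR (adjusted p = 0.0474) was lost in 5 of 14 settings. *Tpi1* and *Eno2* are neighbours on chromosome 6, at chr6:124810586-124814296 and chr6:124760053-124769673 of GRCm38, with *Gapdh* close by at chr6:125161715-125166467. *Gapdh* did not fall with them, at 628, 504 and 513 CPM in Baseline and 667, 605 and 651 in Sox1posGP (log2 0.22, SE 0.11, adjusted p = 0.138). The other 110 tested genes within 5 Mb of *Tpi1* had a median of -0.05, and 9 of them fell at least as far as *Tpi1*. Around *Eno2*, 5 of 110 fell at least as far as it did.

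Among the other members of this stretch, *Gapdh*, *Pgam1*, *Pkm* and *Aldoa* rose in the libraries labelled NR, and *Pgk1* was not called there (log2 -0.07, SE 0.10, adjusted p = 0.55). *Gapdh*, the dehydrogenase that yields NADH, was at 1222, 1398 and 1196 CPM in NSC and 1912, 1529 and 1879 in NR. These are rises of 1.21 and 1.69 over Baseline (SE 0.11 each). *Pkm*, whose gene counts do not separate its M1 and M2 splice forms, was at 1369, 1359 and 1381 in Baseline, 1594, 1601 and 1585 in Sox1posGP, 2705, 2747 and 2684 in NSC and 4096, 3218 and 3644 in NR. The rise of 0.22 in Sox1posGP (SE 0.09, adjusted p = 0.0675) was lost in 6 of 15 settings, while those in NSC and NR were 0.99 and 1.42 (SE 0.09 each). *Pgam1*, the mutase, rose in NSC and NR (log2 0.72 and 1.22, SE 0.10 each) from 113 to 134 CPM in Baseline to 187 to 225 and 256 to 320. Its mean in Sox1posGP was 140 CPM. *Aldoa*, the main aldolase, ran from 474 to 623 CPM in the other three groups and from 804 to 1003 in NR, where it rose by 0.82 (SE 0.09). The rise of 0.27 in Sox1posGP (SE 0.09, adjusted p = 0.0261) was lost in 2 of 15 settings, without Baseline replicate 2 (adjusted p = 0.123) and without Baseline replicate 3 (adjusted p = 0.121). *Pgk1*, the first enzyme to yield ATP, was the member of this stretch that fell in NSC, from 250 to 316 CPM to 205 to 210 (log2 -0.42, SE 0.10, adjusted p = 0.00192). Its fall of 0.24 in Sox1posGP (adjusted p = 0.0856) was lost in 11 of 15 settings.

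Several of these genes have near-identical copies elsewhere in the genome, between which reads can be split. The copy with most counts was *Eno1b* for *Eno1* and *Gm13394* for *Gapdh*. Of the stretches of 50 bases in *Eno1* transcripts 49.5% also occur in other genes, and the share was 58.4% for *Gapdh*, 68.0% for *Pgk1*, 41.5% for *Pgam1*, 23.7% for *Pkm*, 21.0% for *Ldhb* and 20.7% for *Bnip3*. With the counts of such copies added to the member, an alternative chosen after seeing the data, the changes of *Eno1* were 1.09 in Sox1posGP, 1.30 in NSC and 2.02 in NR, and those of *Gapdh* 1.21 in NSC and 1.69 in NR.

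At the exit of the pathway are the enzymes that turn pyruvate into lactate and the kinases that switch off pyruvate dehydrogenase. All 4 of these members were called as rises in the libraries labelled NR, as were 44.2% of all genes. *Ldha*, the lactate dehydrogenase subunit favouring lactate, was at 666, 593 and 579 CPM in Baseline, 695, 702 and 721 in Sox1posGP, 907, 744 and 902 in NSC and 1153, 919 and 1133 in NR. It rose in NSC and NR (log2 0.47 and 0.80, SE 0.11 each) and was at 0.20 in Sox1posGP (SE 0.11, adjusted p = 0.152). *Ldhb*, the subunit of oxidative tissues, was at 102, 100 and 100 CPM in Baseline, 84.2, 94.999 and 84.4 in Sox1posGP, 154, 150 and 153 in NSC and 354, 243 and 298 in NR. It rose by 0.60 in NSC and 1.56 in NR (SE 0.11 each), with -0.20 in Sox1posGP (SE 0.12, adjusted p = 0.209). NR exceeded NSC by 0.97 (SE 0.11), or 0.82 without replicate 1 of NR.

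*Pdk1* and *Pdk3* encode kinases that switch off pyruvate dehydrogenase. *Pdk1*, a classical HIF target, was at 33.1, 38.2 and 37.6 CPM in Baseline, 11.9, 10.99 and 9.51 in Sox1posGP, 50.5, 28.0 and 50.3 in NSC and 121, 75.3 and 93.6 in NR. It fell 3.38-fold in Sox1posGP (log2 -1.76, SE 0.26, adjusted p = 0.000103) and rose 2.67-fold in NR (log2 1.42, SE 0.21, adjusted p = 3.53e-05). NSC, with replicate 2 below all of Baseline and the remaining ones above, was at 0.25 (SE 0.21, adjusted p = 0.299). *Pdk3* was at 31.1, 26.5 and 25.9 CPM in Baseline, 29.0, 28.1 and 29.4 in Sox1posGP, 39.9, 49.3 and 41.0 in NSC and 78.9, 66.0 and 70.7 in NR. It was at 0.04 in Sox1posGP (SE 0.12, adjusted p = 0.861) and rose by 0.63 in NSC and 1.35 in NR (SE 0.11 each).

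Summed over the 23 glycolytic members, 0.476% to 0.488% of all counts came from these genes in Baseline, 0.615% to 0.628% in Sox1posGP, 0.927% to 0.932% in NSC and 1.19% to 1.43% in NR, with no overlap between groups. The 3 transporters summed to 44.2 to 45.5 CPM in Baseline, 51.3 to 57.9 in Sox1posGP, 492 to 512 in NSC and 780 to 992 in NR. The 8 genes from aldolase to pyruvate kinase summed to 3564 to 3905, 4613 to 4697, 6461 to 7191 and 8590 to 10748 CPM in the same order. Such sums weight genes by their read counts, so long and abundant mRNAs count most. The 18 genes of the citric acid cycle, which burns pyruvate in mitochondria summed to 5256 to 5760 CPM in Baseline, 4818 to 4948 in Sox1posGP, 3145 to 3437 in NSC and 3512 to 3894 in NR. They were thus highest in Baseline, and higher in NR than in NSC. The 9 HIF targets outside glycolysis summed to 999 to 1093 CPM in Baseline, 340 to 353 in Sox1posGP, 269 to 273 in NSC and 318 to 357 in NR. Without *Vegfa*, a sum added after seeing the data, the other 8 were at 217 to 234, 192 to 204, 176 to 194 and 234 to 272 CPM. Baseline then overlapped NR narrowly and was no longer the highest group, but it still lay above every Sox1posGP and NSC library.

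**Figure D4:**
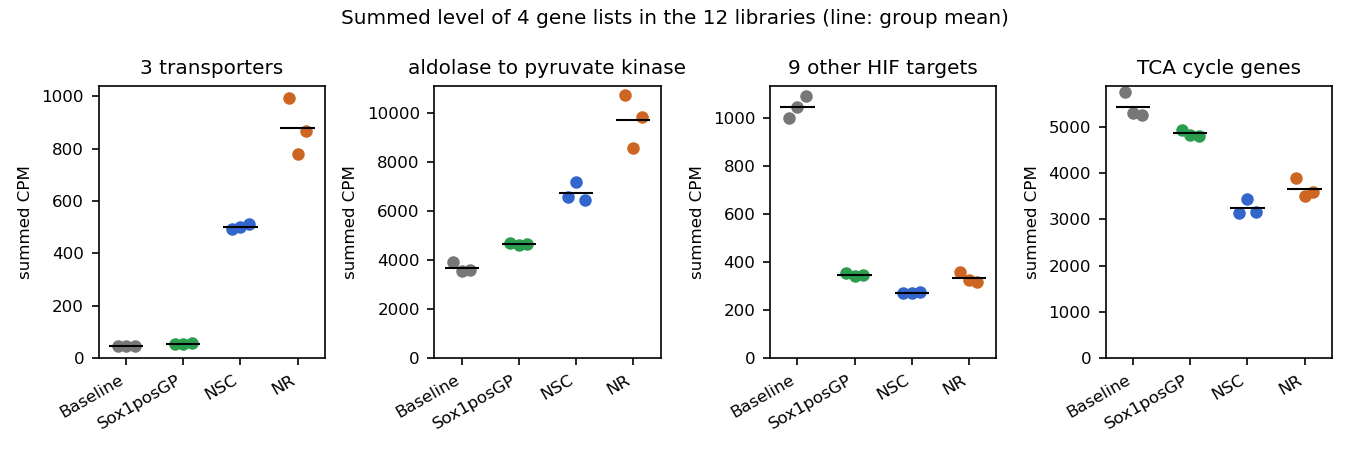
Summed CPM of 4 gene lists in the 12 libraries, with groups on the horizontal axis, 1 point per library, a line at the group mean and the vertical axis starting at 0. Transporters and the genes from aldolase to pyruvate kinase climb from Baseline to NR, while the citric acid cycle genes and the other HIF targets, a sum that *Vegfa* dominates in Baseline, are highest in Baseline.

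Oxygen is sensed by prolyl hydroxylases, and *Egln1* and *Egln3* encode 2 of them (PHD2 and PHD3). *Egln3*, itself a HIF target that feeds back on HIF, was at 9.73, 8.51 and 12.9 CPM in Baseline, 3.18, 2.67 and 1.33 in Sox1posGP, 8.12, 7.87 and 7.74 in NSC and 13.3, 10.2 and 12.7 in NR. It fell 4.44-fold in Sox1posGP (log2 -2.15, SE 0.28, adjusted p = 3.8e-05), on 11, 17 and 8 counts. It lay at -0.38 in NSC and 0.23 in NR (SE 0.21 each, adjusted p = 0.127 and 0.336). *Egln1*, the main oxygen sensor of most cells, was at 56.3, 54.8 and 48.4 CPM in Baseline and 33.9, 41.9 and 33.9 in Sox1posGP (log2 -0.54, SE 0.28, adjusted p = 0.157). Its spread was wide in NSC, at 52.3, 74.4 and 116, and in NR, at 30.5, 47.5 and 61.7. The rise of 0.60 in NSC (SE 0.26, adjusted p = 0.0539) was lost in 5 of 15 settings, and was 0.25 without NSC replicate 3 (adjusted p = 0.356). NR lay below NSC by 0.79 on the log2 scale (SE 0.26, adjusted p = 0.021). The ranges overlapped, but NR was lower in all 3 same-numbered pairs, with differences of -0.78, -0.65 and -0.91 on the log2 scale, and the call held with the replicate block. It was lost without NSC replicate 3 (log2 -0.46, adjusted p = 0.129).

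Among the other genes of the HIF machinery, which are not members, the subunits moved separately. *Hif1a*, the oxygen-regulated subunit, moved by small amounts, at 284 to 321 CPM in Baseline, 245 to 258 in Sox1posGP, 352 to 367 in NSC and 322 to 358 in NR (log2 -0.25, 0.27 and 0.17, SE 0.07 each). The Sox1posGP libraries lay below all of Baseline, and those of NSC and NR above it. The medians of all genes were 0.00 in Sox1posGP, 0.20 in NSC and 0.19 in NR, so the rises of *Hif1a* were near them. *Arnt*, its partner, stood at 49.0 to 50.5 CPM in Baseline and 152 to 169 in Sox1posGP, a rise of 1.68 (SE 0.09, adjusted p = 1.89e-08). *Epas1*, the second alpha subunit (HIF-2alpha), stood at 15.7 to 33.3 CPM in NR against at most 3.69 in any other library (log2 3.66 over Baseline, SE 0.31, and 3.00 over NSC, SE 0.27). *Vhl*, which marks hydroxylated HIF for degradation, fell in all 3 groups (log2 -0.39, -0.60 and -1.30, SE 0.11, 0.10 and 0.10). *Hif1an*, whose enzyme blocks HIF activity by hydroxylating an asparagine, was at 44.7 to 48.3 CPM in Baseline, 45.5 to 50.04 in Sox1posGP, 82.3 to 125 in NSC and 43.6 to 63.3 in NR. It rose in NSC (log2 1.13, SE 0.15, adjusted p = 1.31e-05), above every other library, with 0.04 in Sox1posGP and 0.22 in NR (adjusted p = 0.891 and 0.206). *Egln2*, a further prolyl hydroxylase, was called as a rise of 0.20 in NSC (SE 0.08, adjusted p = 0.0383), which is the median of all genes there. It was at 0.06 in Sox1posGP and -0.08 in NR (adjusted p = 0.623 and 0.356).

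Among the HIF targets outside glycolysis, *Vegfa* and *Ndrg1* fell in all 3 groups, and *P4ha2*, *Adm* and *Ankrd37* rose in NSC and the libraries labelled NR. *Vegfa*, the growth factor of blood vessels, was at 764, 829 and 871 CPM in Baseline, 149, 148 and 155 in Sox1posGP, 77.3, 93.1 and 80.0 in NSC and 84.6, 91.7 and 74.0 in NR. Baseline was above all 9 other libraries and Sox1posGP above the remaining 6. The log2 fold changes were -2.44 in Sox1posGP (SE 0.10, adjusted p = 2.01e-09) and -3.30 in both NSC and NR (SE 0.10, adjusted p = 1.11e-11 and 1.07e-11). The 91 other tested genes within 5 Mb of it had a median of 0.00 in Sox1posGP, and 4 of them fell at least as far. *Ndrg1*, a gene of stress and differentiation, went from 21.6, 23.997 and 26.9 CPM in Baseline to 14.5, 18.1 and 17.0 in Sox1posGP, 3.13, 2.21 and 3.11 in NSC and 9.98, 7.29 and 6.29 in NR. The changes were -0.53, -3.08 and -1.63 on the log2 scale (SE 0.20, 0.21 and 0.20). The fall in Sox1posGP (adjusted p = 0.0497) was lost in 3 of 15 settings, and NR lay above NSC by 1.46 (SE 0.20).

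The 2 genes for the alpha subunit of collagen prolyl 4-hydroxylase, an enzyme that stabilises collagen, diverged. *P4ha2* had 10, 5 and 0 counts in Baseline (0.597, 0.698 and 0 CPM) and 3, 6 and 9 in Sox1posGP (0.869, 0.942 and 1.501 CPM), against 18.5, 19.1 and 19.9 CPM in NSC and 31.2, 32.3 and 25.6 in NR. It rose by 5.20 in NSC and 5.84 in NR (SE 0.31 and 0.30), and the rise of 1.13 in Sox1posGP (SE 0.48, adjusted p = 0.0813) was lost in 6 of 13 settings. *P4ha1* was at 96.0, 96.8 and 92.7 CPM in Baseline, 95.8, 88.2 and 88.1 in Sox1posGP, 55.1, 49.1 and 55.2 in NSC and 87.6, 66.0 and 70.1 in NR. It fell by 0.84 in NSC and by 0.36 in NR on the log2 scale (SE 0.10 each).

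*Adm*, the vasodilator adrenomedullin, had 0, 2 and 0 counts in Baseline and 0, 1 and 1 in Sox1posGP, so no fold is given between them. In NSC it was at 5.82, 1.69 and 5.33 CPM and in NR at 15.5, 3.52 and 9.78, with replicate 2 lowest in both. The ratios to Baseline were 65.3 (exact interval 18.0 to 541 at 95%, counting error only) and 122.7 (33.9 to 1015). The difference of 1.14 between NR and NSC (SE 0.50, adjusted p = 0.0752) was lost in 4 of 14 settings, and without replicate 1 of NR it was 0.63 (adjusted p = 0.340). The ranges overlapped, but NR was the higher in every same-numbered pair, and the call held with the replicate block. *Ankrd37*, a compact HIF target of little-known function, had 0 counts in all 3 Baseline libraries, which allows up to 0.179, 0.419 and 0.626 CPM, and 1, 4 and 0 counts in Sox1posGP. Its call there, the sole rise with a fitted fold over 4, allows no bound on the fold and was lost without replicate 2. Against a floor of 3 counts per Baseline library, *Ankrd37* was at least 4.04-fold higher in NSC (1.68, 1.59 and 1.68 CPM) and at least 8.05-fold higher in NR (3.69, 3.06 and 3.09).

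*Car9*, a carbonic anhydrase often used to mark hypoxic tissue, had 1, 0 and 0 counts in Baseline and 0 in each Sox1posGP library, which allows up to 0.869, 0.471 and 0.5004 CPM there. It reached 15, 5 and 10 counts in NSC and 11, 11 and 18 in NR, at most 0.677 CPM, and was not tested. *Bnip3*, which marks mitochondria for removal, was at 40.0, 31.8 and 35.3 CPM in Baseline, 28.4, 24.7 and 21.7 in Sox1posGP, 42.9, 26.3 and 40.6 in NSC and 65.8, 55.5 and 63.4 in NR. It fell by 0.54 in Sox1posGP (SE 0.18, adjusted p = 0.0318) and rose by 0.78 in NR (SE 0.17, adjusted p = 0.000781). The fall was lost in 3 of 15 settings (with thinned counts, without Baseline replicate 1 and without Sox1posGP replicate 3, adjusted p of 0.114 to 0.156). *Higd1a*, a small mitochondrial protein induced by hypoxia, kept to 57.8 to 76.1 CPM in all 12 libraries and was not called in any comparison (adjusted p of 0.213 to 0.849).

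Ratios of 2 genes for the same step do not depend on the scaling between libraries. They were taken per kilobase of mRNA as log2. Each of 10 pairs was tested over the 4 groups by an exact permutation test of 369600 arrangements, which can go no lower than 6.49e-05, with Benjamini-Hochberg adjustment over the 10 pairs. All 10 differed between groups, with adjusted p of at most 0.00701. Since 3 libraries against 3 cannot go below 0.10, pairs of groups are described by whether they overlap. The phosphofructokinase pairs separated every group from every other (both p = 6.49e-05, exact permutation test). *Pfkm* over *Pfkl* was 1.04 ± 0.12 in Baseline, 0.25 ± 0.01 in Sox1posGP, -2.11 ± 0.04 in NSC and -2.42 ± 0.09 in NR (SD, n = 3). This is 65.5% to 69.2% *Pfkm* of the pair in Baseline and 14.9% to 16.5% in NR. *Pfkp* over *Pfkl* was -2.27 ± 0.16, -4.99 ± 0.26, -3.68 ± 0.16 and -0.89 ± 0.32 in the same order, so that *Pfkp* made up 2.496% to 3.49% of the pair in Sox1posGP and 30.2% to 40.4% in the libraries labelled NR.

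**Figure D5:**
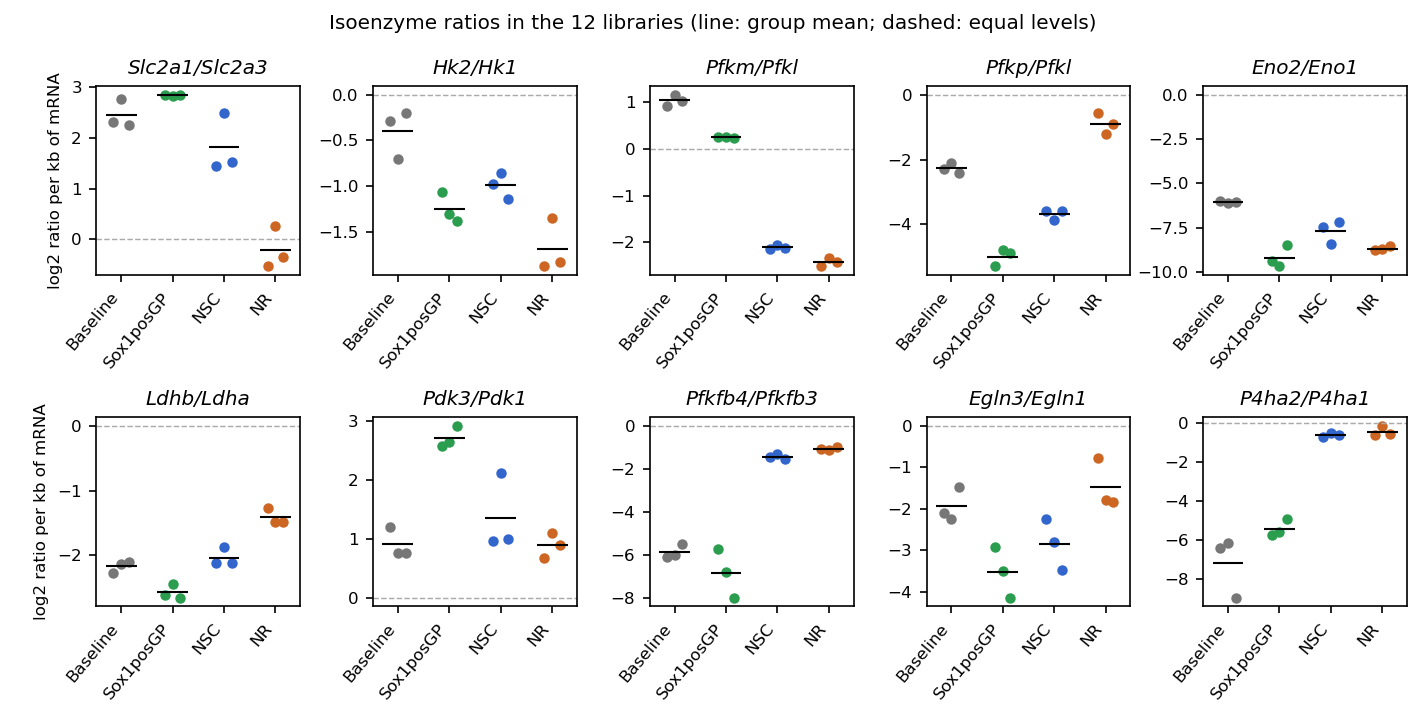
Log2 ratio per kilobase of mRNA of 10 pairs of genes for the same step in the 12 libraries, with groups on the horizontal axis, 1 point per library, a line at the group mean and a dashed line at equal levels. Both phosphofructokinase ratios separate all 4 groups, and the *Slc2a1* to *Slc2a3* ratio reaches equality in the NR libraries only.

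*Slc2a1* over *Slc2a3* fell from 2.25 to 2.76 in Baseline and 2.82 to 2.85 in Sox1posGP to -0.53 to 0.26 in the libraries labelled NR (p = 0.00136, exact permutation test), with NSC, at 1.44 to 2.48, overlapping Baseline. *Hk2* over *Hk1* was highest in Baseline, where *Hk2* made up 38.0% to 46.5% of the pair, against 27.8% to 32.4% in Sox1posGP, 31.3% to 35.6% in NSC and 21.5% to 28.2% in NR (p = 0.000325, exact). *Eno2* was a minor part of enolase throughout, at 1.42% to 1.54% in Baseline and 0.122% to 0.282% in Sox1posGP, which overlapped NR. *Ldhb* was 17.2% to 19.0% of the lactate dehydrogenase pair in Baseline, 13.7% to 15.5% in Sox1posGP and 26.3% to 29.4% in NR, with NSC overlapping Baseline.

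For the regulators, *Pdk3* over *Pdk1* set Sox1posGP apart, at 85.6% to 88.3% *Pdk3* against 61.4% to 81.2% in the other groups (p = 0.00701, exact). Those groups overlapped among themselves. Within same-numbered pairs, the log2 ratio was lower in NR than in NSC each time (0.67 against 0.96, 1.10 against 2.11 and 0.89 against 1.00). *Pfkfb4* over *Pfkfb3* divided the NPC groups, at -6.78 to -5.51 in the 5 libraries with a *Pfkfb4* count, from NSC, at -1.54 to -1.28, and NR, at -1.13 to -0.98. Likewise *P4ha2* over *P4ha1* was -6.40 to -4.94 in the 5 NPC libraries with a *P4ha2* count and -0.71 to -0.17 in NSC and NR, which overlapped. Here NR was the higher in every same-numbered pair (-0.63 against -0.71, -0.17 against -0.51 and -0.59 against -0.61). *Pfkfb4* in Sox1posGP replicate 3 and *P4ha2* in Baseline replicate 3 had 0 counts, so their ratios there are set by the added 0.5. Without the library concerned, the exact permutation p was 0.00208 for *Pfkfb4* over *Pfkfb3* and 0.00039 for *P4ha2* over *P4ha1*. *Egln3* over *Egln1* was 5.34% to 11.7% *Egln3* in Sox1posGP and 8.27% to 17.3% in NSC, which overlapped, and 17.4% to 26.6% in Baseline and 21.8% to 37.1% in NR, which overlapped too (p = 0.00701, exact).

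The other genes of the pathway, taken from wider lists, moved in both directions in every comparison. Of 36 other tested genes of glycolysis and pyruvate use, 8 rose and 14 fell in Sox1posGP, 12 rose and 18 fell in NSC, and 15 rose and 13 fell in the libraries labelled NR. The medians were -0.21, -0.49 and -0.02, each below the median of all genes (0.00, 0.20 and 0.19), and the shares of all genes that rose or fell are those given with the members' counts. Between NR and NSC 17 were higher and 7 lower, with a median of 0.26. The summed level of the 41 genes of this list was 3245 to 3530 CPM in Baseline, 2648 to 2696 in Sox1posGP, 1780 to 1959 in NSC and 2127 to 2329 in NR, so it was highest in Baseline, unlike the sums of the transporters and of aldolase to pyruvate kinase among the members. *Aldoc*, the aldolase of brain and astrocytes, dropped most in NSC and NR, with changes of -0.88 on the log2 scale in Sox1posGP (SE 0.08), -7.12 in NSC (SE 0.11) and -6.66 in NR (SE 0.10). It went from a mean of 639.8 CPM in Baseline to 347, 4.58 and 6.34. *Mpc1*, a subunit of the carrier that takes pyruvate into mitochondria, also fell (log2 -0.51, -2.85 and -2.68, SE 0.18 each). *Pdk4*, a further pyruvate dehydrogenase kinase, had 0 counts in all 6 NPC libraries and was at least 2.46-fold higher in NSC and 12.3-fold higher in NR than the floor of Baseline.

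Of 38 other tested genes of the HIF pathway and its targets, 5 rose (8 with upper-quartile scaling factors) and 17 fell in Sox1posGP, 17 rose and 15 fell in NSC, and 16 rose and 14 fell in the libraries labelled NR, with medians of -0.24, 0.12 and 0.18 (0.00, 0.20 and 0.19 over all genes). The shares of all genes were 21.6% and 22.7%, 42.7% and 32.5%, and 44.2% and 32.8%, so the counts in NSC and NR were close to the background. The steepest falls in Sox1posGP were those of *Vldlr*, a lipoprotein receptor, and *Ero1l*, an oxidase of protein folding, at -2.16 (SE 0.12) and -2.05 (SE 0.10) on the log2 scale. *Car12*, a further carbonic anhydrase, was called as a rise in Sox1posGP on 1 to 3 counts a library against 0 in Baseline, so no fold is given. Of the 18 genes of the citric acid cycle, 3 rose and 8 fell in Sox1posGP, 2 rose and 13 fell in NSC, 3 rose and 12 fell in the libraries labelled NR, and 7 were higher (12 with upper-quartile scaling factors) and 1 lower in NR than in NSC. Their medians were -0.14, -0.76, -0.50 and 0.15 (0.00, 0.20, 0.19 and 0.01 over all genes, whose shares were as for the members).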

How the data were processed

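RNA extracted from Baseline, Sox1posGP, NSC and NR cells was amplified and sequenced in 12 libraries, 3 replicates in each of 4 groups. The authors deposited whole-number read counts per Ensembl gene in 1 table. The submitters' processing notes name STAR 2.6, RSEM 1.1.14 and the mm10 build, and the annotation and the strand setting are not given in the sources used here. If the counts are rounded RSEM estimates, reads shared by near-identical genes were divided between them by a model. Symbols, positions and mRNA lengths (principal transcript) were taken from GENCODE on GRCm38, and promoters from RefSeq on GRCm38.p6.

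Genes were filtered (filterByExpr), scaled by TMM and fitted over all 4 groups with edgeR 4.0.16 in R 4.3.3. Calls required an adjusted p under 0.1 (quasi-likelihood test, Benjamini-Hochberg over 17003 genes) and p under 0.05, and a second rule added a fold over 4. Standard errors were derived from the fold change and its F statistic. Isoenzyme ratios used counts plus 0.5. Levels between genes were compared only per kilobase of mRNA. The fitting script was tested on simulated data.

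Both genes of each isoenzyme pair were given in every library, as were members called with a fold over 2 in any comparison. The exception was *Pgam1*, given as ranges and a mean. From each other list, up to 2 called rises and 2 falls per comparison and the HIF regulators could be named. The members and lists were chosen with earlier results of these data known. Replicate numbers paired NR with NSC, since deviations from the group means correlated in every same-numbered pair (lowest 0.229, mean 0.338), but not the other groups (means of -0.0386 to 0.0285). Alternatives were DESeq2 1.42.0, other scaling and filters, fits of only the groups compared, counts thinned to the smallest total, a replicate block, each replicate left out and, added after seeing the data, summed gene copies.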

Additional observations from a re-analysis of the deposited data

How the results depend on the processing

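Of 101 called changes of members, refitted in 1507 other settings in all, 1424 kept the call, 83 lost it and 0 changed direction. Counts moved as follows. With only genes of at least 10 counts in every library, where fewer genes are tested, 7 members in place of 12 fell in Sox1posGP, and past 4-fold 0 rose and 1 fell in Sox1posGP, 3 rose in NSC and 5 in NR. With only the groups compared, 0 members rose past 4-fold in Sox1posGP. Past 4-fold, 1 member in place of 2 was higher in NR than in NSC with no filter, with only these groups and with thinned counts. With upper-quartile factors, 8 other HIF genes in place of 5 rose in Sox1posGP, and 12 citric acid cycle genes in place of 7 were higher in NR than in NSC. The cause was not tested. Leaving out 1 library gave 5 to 11 rises and 9 to 12 falls in Sox1posGP, the 5 without its replicate 2, and past 4-fold 0 to 1 rises (0 without that replicate) and 2 to 4 falls. Between NR and NSC it gave 1 to 2 members past 4-fold, with 1 without NSC replicate 2, NR replicate 1 or NR replicate 3. With the replicate block, 9 members rose and 13 fell in Sox1posGP and every other count of members stayed as it was (20 and 6 in NSC, 22 and 6 in NR, 23 and 3 between NR and NSC). *Hk2* (adjusted p = 0.143, edgeR) and *P4ha2* (adjusted p = 0.105) lost their calls in Sox1posGP. Other members gained calls there under the block, in both directions, so some described above as not passing in Sox1posGP did pass with it. The largest block p of the ratios was 0.0295 by exact permutation. Low depth in the NPC groups limits *Adm*, *Ankrd37*, *Car9*, *Pfkfb4*, *P4ha2* and *Slc16a3*.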
